A study of Mus musculus with 12 samples.

Results

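Expression of 10 genes best known from the lining of the intestine was followed in RNA of whole fetal livers: Cdx1, Cdx2, Alpi, Fabp2, Lgals4, Tff3, Spink4, Agr2, Muc2 and Fcgbp. They were taken by symbol from a table of 30743 rows, 1 row per symbol, and all 10 were found. The list was chosen from intestinal epithelial genes with earlier results of the diet comparison in these same livers known, so no difference between the diets is given or tested here for them. The livers came from male C57BL/6J fetuses at 15 ± 0.5 dpc (days post coitum). Dams of 6 fetuses were kept on a high-fat diet (HFD, 60 kcal% fat) and dams of the other 6 on a control diet (13.5 kcal% fat), in both cases for 12 to 14 weeks. Livers were frozen whole, and polyA-selected RNA was sequenced on an Illumina HiSeq. The labels do not say which fetuses were littermates.

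The value used for each gene is the authors' average over all 12 libraries of both diets, in log2 CPM, where CPM is the read count scaled to the size of its library. It has no SD, since no value of a single liver was analysed here. The lowest value, 0.152 CPM, was shared by 11091 rows and is that of a row without reads, because a small prior count is part of each average. Each CPM given here contains that amount, which is a large part of the value of a gene with few reads, while the levels per kb are without it. Above it, the averages, taken out of the log scale, rose in near-equal steps, and a step corresponds to 1 read over 12 libraries with a prior count of 2. On this reading the mean effective library held about 13100000 reads, and the reads behind each gene could be counted back approximately. The 95% intervals given with the levels per kb are exact Poisson intervals on those reads. They cover counting error only and say nothing of the spread between livers.

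The intestinal epithelium consists of absorptive cells, which carry digestive enzymes on a brush border, and of secretory cells, among them mucus-producing goblet cells. Cdx1 and Cdx2 are homeobox transcription factors that establish and maintain intestinal identity. Alpi encodes intestinal alkaline phosphatase of the brush border, Fabp2 the intestinal fatty acid-binding protein and Lgals4 the lectin galectin-4. Muc2 is the main gel-forming mucin of the gut, Fcgbp a large protein of its mucus, Tff3 a trefoil peptide, Spink4 a small protein of the Kazal inhibitor family and Agr2 a protein disulfide isomerase needed to fold mucin. In the fetus the liver makes plasma proteins in hepatocytes and is the main site of blood formation.

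Cdx proteins bind A/T-rich DNA with the core letters TTTAT. The 250 bases before the RefSeq start of the intestinal genes were searched for these letters on both strands. RefSeq promoters (GRCm38.p6) were at hand for 7 of the 10 genes, Alpi, Agr2, Cdx2, Fabp2, Fcgbp, Lgals4 and Muc2. For Agr2, Cdx2 and Lgals4 the RefSeq start differs from the start in GENCODE M21, which gives the gene positions below. The windows of Agr2 and Cdx2 reach into the gene as placed there, and that of Lgals4 ends before it. TTTAT occurred in 4 of the 7, against 37.3% of all 32851 promoter windows of that length. The longer form TTTATG occurred in 1, Agr2, against 10.8% of all windows. The letters of TTTAT are part of the TATA box motif TATAAA read on the other strand, and the matches in Alpi and 1 of the matches in Muc2 lay within such a motif, which 12.4% of all windows held. A match is a description of the letters and not a measured binding site. The 4 windows with a match are shown from 5′ to 3′, with the match in capitals, to let the position of these letters be compared.
Agr2 (chr12:35992675-35992924, plus strand): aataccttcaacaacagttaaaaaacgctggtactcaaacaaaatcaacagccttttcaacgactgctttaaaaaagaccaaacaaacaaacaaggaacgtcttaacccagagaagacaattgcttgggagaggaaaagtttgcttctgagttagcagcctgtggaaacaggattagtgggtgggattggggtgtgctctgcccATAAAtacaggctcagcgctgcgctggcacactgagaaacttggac
Alpi (chr1:87101607-87101856, minus strand): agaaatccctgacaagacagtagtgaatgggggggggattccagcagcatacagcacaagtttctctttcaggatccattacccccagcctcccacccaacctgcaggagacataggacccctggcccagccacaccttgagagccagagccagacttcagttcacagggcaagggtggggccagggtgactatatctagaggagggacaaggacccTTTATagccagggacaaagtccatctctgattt
Fabp2 (chr3:122894822-122895071, plus strand): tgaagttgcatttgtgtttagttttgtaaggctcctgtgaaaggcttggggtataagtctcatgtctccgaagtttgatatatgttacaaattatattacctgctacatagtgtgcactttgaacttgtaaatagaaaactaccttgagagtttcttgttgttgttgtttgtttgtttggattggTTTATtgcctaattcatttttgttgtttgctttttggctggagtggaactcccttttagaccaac
Muc2 (chr7:141690090-141690339, plus strand): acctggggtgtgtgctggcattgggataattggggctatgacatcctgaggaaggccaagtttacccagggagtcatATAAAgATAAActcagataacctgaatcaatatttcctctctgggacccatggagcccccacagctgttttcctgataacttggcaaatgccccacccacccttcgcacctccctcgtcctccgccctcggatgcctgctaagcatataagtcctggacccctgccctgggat

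Reads were present for all 10 genes, but 2 of them held nearly all of these reads. Tff3 and Fabp2 together had about 5991 of the 6566 reads of the 10 genes, which is 91.2%. The other 8 genes had between 29 and 145 reads each over the 12 libraries, 575 in all. Above 1 CPM were 3 genes, Tff3, Fabp2 and Fcgbp, against 33.1% of all rows and 51.8% of the 19652 rows with reads. Without the prior count Fcgbp had 0.919 CPM (0.776 to 1.08), which left 2 of the 10 genes above 1 CPM, against 31.9% of all rows. The median of the 10 genes was 0.627 CPM, and that of all rows with reads was 1.15 CPM. The prior count raised 3 of the 10 by over 1.5 times, Cdx1 (0.182 CPM without it), Agr2 (0.239 CPM) and Alpi (0.295 CPM). In whole tissue, fewer cells of a type and less RNA per cell cannot be told apart.

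The intestinal transcription factors were both among the genes with few reads. Cdx2, on chromosome 5 of GRCm38 (the assembly of mm10) from 147300805 to 147307270, averaged 0.709 CPM, or about 88 reads. Cdx1, on chromosome 18 from 61018862 to 61036199, averaged 0.335 CPM, or about 29 reads. Both have a single annotated transcript in GENCODE M21, so their reads could not be split between transcripts of the same gene in that annotation. Per kb of exon, Cdx2 stood at 0.246 CPM (95% counting interval 0.198 to 0.303) and Cdx1 at 0.104 CPM (0.0698 to 0.150). These intervals did not overlap. Cdx4, another gene of the family, had about 2 reads.

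Among the genes of absorptive cells, Fabp2 stood apart from Alpi and Lgals4. Fabp2, on chromosome 3 from 122895072 to 122899506, averaged 15.4 CPM, or about 2408 reads. Its level per kb was 15.8 CPM (15.2 to 16.5), at percentile 85.9 of the 15887 rows with reads and a known length. Fabp2 has 1 annotated transcript. The only gene that overlaps it in GENCODE M21, the antisense gene 4933405D12Rik, does so within its introns. The same family held higher levels: Fabp1, the fatty acid-binding protein known from liver as well as gut, had 455 CPM per kb, 28.7 times the level of Fabp2, and Fabp5 had 176 CPM per kb. Fabp6, the ileal bile acid-binding protein, was listed at the lowest value.

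Alpi, on chromosome 1 from 87098002 to 87101606, averaged 0.447 CPM, or about 46 reads. Its level per kb was 0.126 CPM (0.0923 to 0.168). Akp3 and Alppl2, the neighbouring genes of the same alkaline phosphatase cluster, were listed at the lowest value, while Alpl, the tissue-nonspecific enzyme, had 7.95 CPM per kb. Lgals4, on chromosome 7 from 28833854 to 28841708, averaged 0.544 CPM, or about 62 reads, and 0.169 CPM per kb (0.130 to 0.217). Lgals1, a galectin of many cell types, had 566 CPM per kb, and Lgals2 had 14.5 CPM per kb. Per kb, the intervals of Alpi and Lgals4 overlapped each other and lay far below that of Fabp2.

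Goblet cell genes likewise divided into 1 gene with many reads and 4 with few. Tff3, on chromosome 17 from 31125306 to 31129646, averaged 22.9 CPM, or about 3583 reads. With a short transcript of 0.493 kb it had the highest level per kb of the 10 genes, 46.1 CPM (44.6 to 47.7), at percentile 94.1 of rows with reads and a known length. The other trefoil genes did not share this level, since Tff1 had about 9 reads and Tff2 about 5. Both are known from the stomach.

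Spink4, on chromosome 4 from 40920052 to 40931395, averaged 0.508 CPM, or about 56 reads, which over its 0.477 kb of exon gave 0.745 CPM per kb (0.563 to 0.968). Of its family, Spink3 had 78.9 CPM, with no level per kb available, and Spink5 had about 8 reads. Agr2, on chromosome 12 from 35992907 to 36004087, averaged 0.391 CPM, or about 38 reads, and 0.185 CPM per kb (0.131 to 0.254). Its nearest relative Agr3 was listed at the lowest value. Muc2 lies on chromosome 7 from 141690340 to 141754693 and averaged 0.858 CPM, or about 111 reads. Fcgbp lies on the same chromosome from 28071236 to 28120862 and averaged 1.07 CPM, or about 145 reads. Per kb of the union of their exons they ranked last, with 0.0991 CPM for Muc2 (0.0815 to 0.119) and 0.0876 CPM for Fcgbp (0.0739 to 0.103). GENCODE M21 gives Muc2 8 transcripts, the longest of 2926 bases, and marks the locus as fragmented, so its length and level per kb are uncertain. Per kb of that longest transcript Muc2 had 0.241 CPM, against 0.126 CPM for Alpi and 0.104 CPM for Cdx1. That transcript is shorter than the 7127 bases of the Muc2 exon union, so its use can overstate the level. Muc2 therefore could not be ranked against those genes by level per kb.

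Ordered by level per kb of exon, the genes were Tff3, Fabp2, Spink4, Cdx2, Agr2, Lgals4, Alpi, Cdx1, Muc2 and Fcgbp. The first was 527 times the last. With the longest transcript as the length, the order after Spink4 was Lgals4, Agr2, Cdx2, Muc2, Alpi, Fcgbp and Cdx1, and the range was 442-fold. With the coding length it was Cdx2, Agr2, Lgals4, Muc2, Cdx1, Alpi and Fcgbp, and the range was 789-fold. The place of Muc2 in each order is uncertain, because its locus is marked as fragmented. Which gene was last, and with it the range, is therefore uncertain too. Counting intervals separated Tff3 from Fabp2, Fabp2 from Spink4 and Spink4 from Cdx2. For the other 6 of the 9 pairs of neighbours in this order they overlapped, so those neighbours could not be ranked even by counting error. The widest gap between neighbours was that from Fabp2 to Spink4, 21.2-fold. The plot of levels per kb shows the gap between the first 2 genes and the rest.

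**Figure D1:**
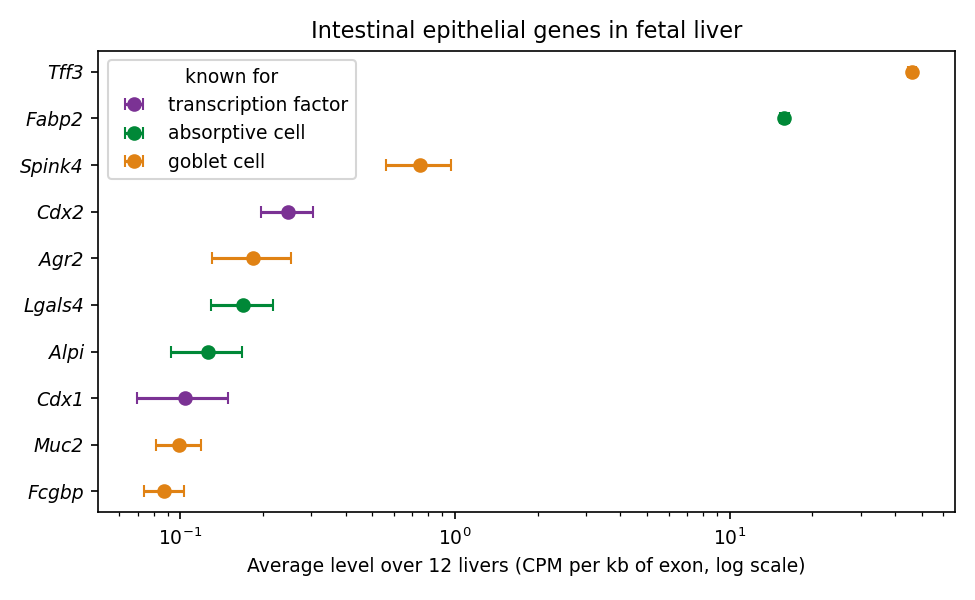
Average level of the 10 intestinal genes over 12 fetal livers, in CPM per kb of exon on a log axis, coloured by what each gene is known for. Points are the authors' average with the prior count removed and bars are 95% Poisson counting intervals. Tff3 (46.1) and Fabp2 (15.8) lie far to the right, and the other 8 lie between 0.0876 and 0.745.

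A low value in this table could not be read as low expression without a check, because genes that every cell uses were low as well. Of 75 genes of cytosolic ribosomal proteins, 10 lay under 1 CPM and 4 were listed at the lowest value, while the highest reached 2441 CPM. Gapdh, a glycolytic enzyme of all cells, had 5.20 CPM, and Actb 2581 CPM. Markers of the tissue were split in the same way. Albumin (Alb) had 63314 CPM, Afp 54525 CPM and the red cell genes Slc4a1 and Gata1 12037 and 367 CPM. The hepatocyte factor Hnf4a, the macrophage marker Emr1 and the endothelial marker Pecam1 were listed at the lowest value, and Alas2, the heme enzyme of red cell precursors, had 0.704 CPM. The Y-linked genes Eif2s3y and Kdm5d had 122 and 6.49 CPM, Ddx3y was listed at the lowest value, and Xist had 0.367 CPM. These genes were picked after their values were seen.

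GENCODE M21 gives several coding transcripts to 12694 of the matched coding genes, and 43.3% of these lay above 1 CPM. Of the 6022 with a single coding transcript, 48.9% did. Above 8 CPM lay 24.4% of the genes with several coding transcripts and 34.8% of those with a single one. Of the 10 intestinal genes, 7 have a single coding transcript, and Fcgbp, Lgals4 and Muc2 have more. Among the genes named above at the lowest value, Ddx3y has 1 coding transcript, Hnf4a 4 and Pecam1 6. Actb, at 2581 CPM, has 5. Whether the number of coding transcripts bears on these values was not tested. The tool that counted reads per gene is not given in the sources used here, and its part in these values was not tested.

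**Figure D2:**
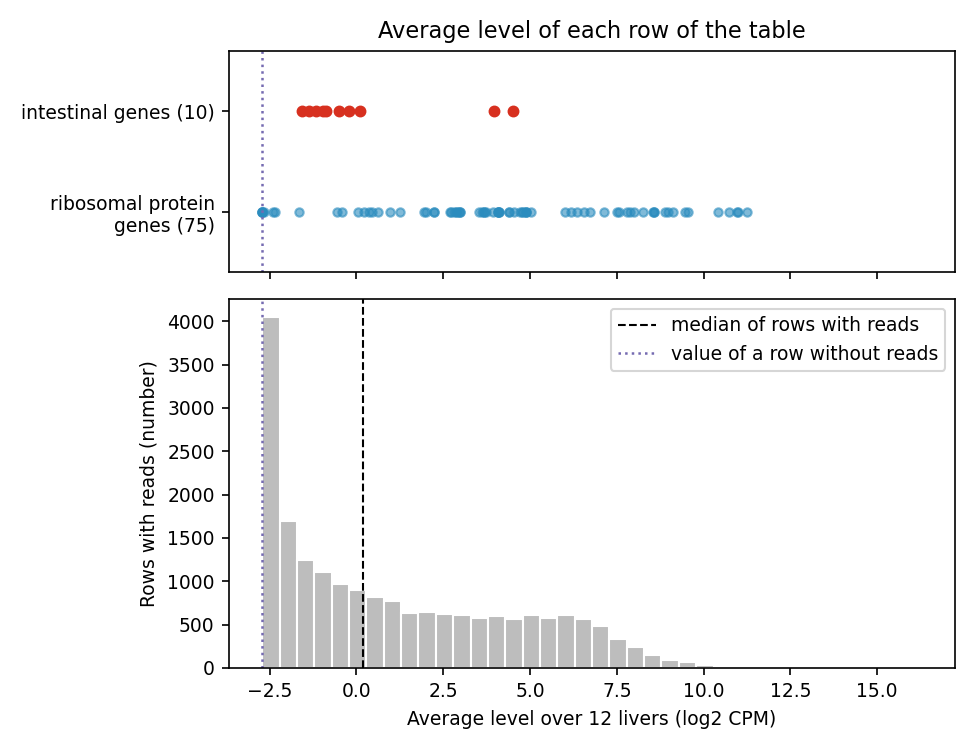
Average level over 12 livers in log2 CPM for the 10 intestinal genes and 75 ribosomal protein genes (upper panel, 1 point per gene) above the number of rows at each level (lower panel, rows with reads only). Of the intestinal genes 8 lie between 0.335 and 1.07 CPM, below the median of rows with reads (1.15 CPM), and the ribosomal protein genes spread from the lowest value to 2441 CPM.

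Other genes of the gut lining had mostly few reads. Over 5 lists of intestinal transcription factors, enterocyte, goblet, Paneth and crypt stem cell genes, all 49 genes were in the table, 36 had reads and 7 lay above 1 CPM (14.3%, against 33.1% of all rows). Of the 18 enterocyte genes, 14 had reads and 4 lay above 1 CPM. Krt20, a keratin of mature enterocytes, had 111 CPM, Dpp4, a peptidase also found on other cells, 13.7 CPM, Rbp2, the intestinal retinol-binding protein, 9.77 CPM, and Vil1, a brush border actin-bundling protein also present in liver, 4.04 CPM. Cdh17, an intestinal cadherin, had 0.817 CPM and the lactase gene Lct 0.734 CPM. Sis (sucrase-isomaltase), Treh and Tmigd1 were among those listed at the lowest value.

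None of the 12 further goblet and secretory genes lay above 1 CPM, and 5 of them, Clca1, Retnlb, Best2, Agr3 and Ern2, were listed at the lowest value. The highest of this list were Gfi1, also a blood cell regulator, with 0.445 CPM, Muc13, a membrane mucin, with 0.369 CPM, and Spdef, a goblet cell transcription factor, with 0.298 CPM. Atoh1, which sets the secretory lineage, had about 4 reads. None of these genes was listed near the 22.9 CPM of Tff3, though a low value in this table need not mean low expression. Of the 8 Paneth cell genes 5 had reads, led by Lyz1 with 0.494 CPM, or about 54 reads, while Itln1 had about 5 reads and Reg3b about 3. Of the intestinal transcription factors outside the 10 genes, Hnf4g had 4.42 CPM, Klf5 0.708 CPM and Gata4 0.372 CPM, and Isx was listed at the lowest value. In the crypt stem cell list, Lgr5 had 5.17 CPM, Smoc2 3.68 CPM and Ascl2 0.774 CPM. Lgr5 and Smoc2 are expressed in other fetal tissues too.

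**Figure D3:**
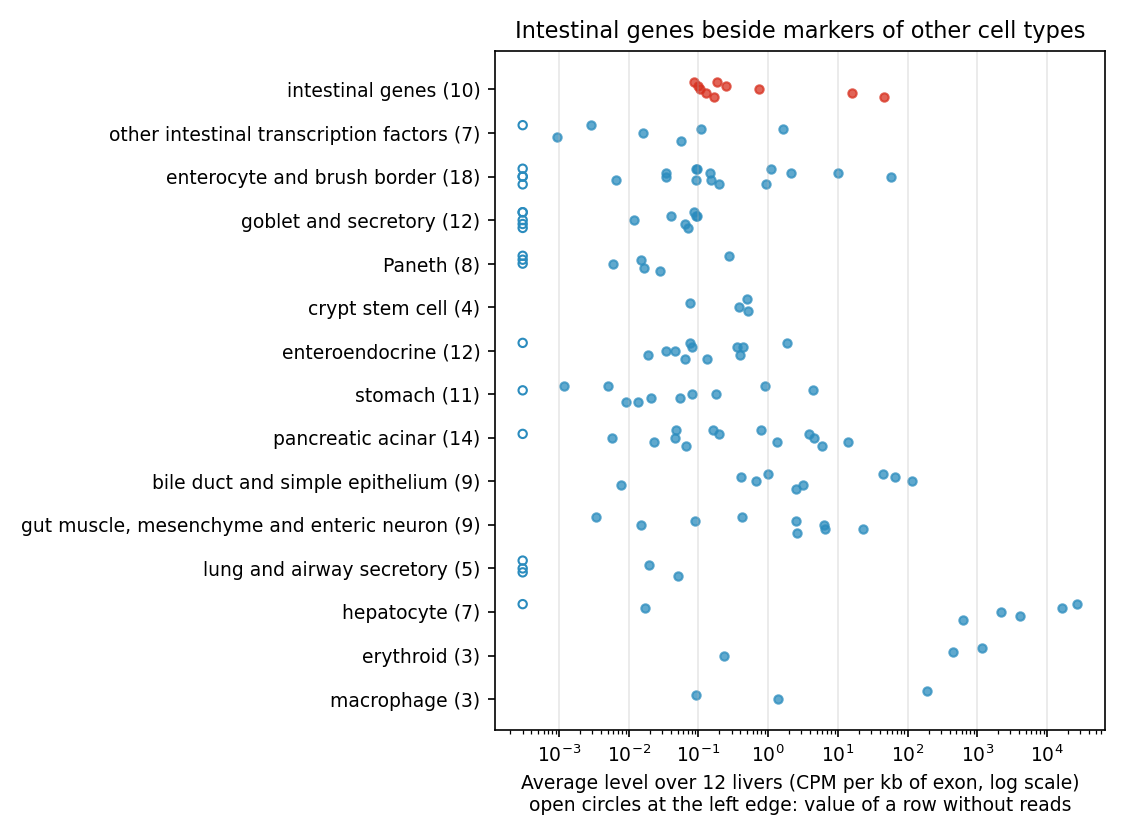
Average level over 12 livers, in CPM per kb of exon on a log axis, of the 10 intestinal genes and of the genes of 14 marker lists (1 point per gene, the number found in the table in brackets). Open circles mark genes at the value of a row without reads. Of the intestinal genes 8 lie between 0.0876 and 0.745 CPM per kb, while the leading hepatocyte and red cell genes lie above 100 CPM per kb.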

How the data were processed

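PolyA-selected libraries that do not keep strand were made from 12 whole fetal livers, 6 per diet. The authors' methods name fastqc for read quality, Subread (1.3.6-p1 in the submitters' processing notes) for alignment to mm10, biomaRt for gene annotation and edgeR for the test between diets. The processing notes also list cutadapt 1.2.1. The authors deposited 1 table with the log2 average CPM over all libraries, which was used here. Its other 8 columns of values, apart from a second copy of that average, hold the authors' own log2 fold changes, signed fold changes, p-values and adjusted p-values with a common and a tagwise dispersion. They were not used, so no test was made and no diet difference is given.

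To count back the reads, the ratio of a gene's CPM to the lowest CPM was taken, 1 was subtracted, and the result was multiplied by 12 libraries and the prior count of 2. In the 4222 rows of 1 to 10 reads, the result lay within 0.148 of a whole number. The computation was tested on simulated libraries with the same prior count of 2, with reads spread over the libraries or held by a single one. That test does not check the prior count itself. How the reads of a gene were spread over the 12 livers is not known here. Levels per kb use the CPM without the prior count and the union of exons in GENCODE M21, to which 21063 symbols matched. All 10 genes were named, with the 3 highest genes of each of 14 marker lists and close relatives. The list of 10, the marker lists, the relatives and the tissue genes were chosen with earlier results of these data known. Genes named beyond that rule, including all those at the lowest value, were picked after their values were seen, and some list genes are not reported here. Values were computed in Python 3.11.15 with pandas 2.3.3, intervals with scipy 1.17.1 and plots with matplotlib 3.10.9, on numpy 2.4.6.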

Additional observations from a re-analysis of the deposited data

How the results depend on the processing

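All 10 genes also had at least 10 reads. With a minimum of 0.5 CPM, 7 of the 10 genes passed in place of 3, and of the marker genes 50 in place of 39. Of those 7, Lgals4 and Spink4 passed only with the prior count, since without it they had 0.392 and 0.356 CPM. The share of all rows above 0.5 CPM was not computed, so these counts have no background beside them. All 10 lay above the median of all rows, and 2 above the median of rows with reads, of rows with at least 10 reads and, a setting chosen after seeing the data, of rows of genes with 1 coding transcript. Removing the prior count lowered the median of the 10 genes from 0.627 to 0.474 CPM, moved 7 of the 10 levels and, a count added after seeing the data, left 2 genes above 1 CPM. With the coding length, all 10 levels per kb moved beyond their counting interval, and with the longest transcript, also added after seeing the data, 4 did. The coding length of each of the 10 genes is shorter than its exon union, so with it each level could only rise. Tff3, Fabp2 and Spink4, in that order, had the highest levels with each length, and the order of the other 7 changed. No paired analysis was possible because no result comes from a test, and leaving out a replicate was not run because the table holds 1 average over all libraries. Counting error limits the 8 genes of 29 to 145 reads most.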

Other observations

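Genes of organs that lie beside the fetal liver were in the table at varied levels. The counts above 1 CPM in this section stand beside 33.1% of all rows. In the stomach list, Muc6, a mucin of gastric glands, had 41.5 CPM, Barx1, a homeobox gene of the stomach wall, 1.40 CPM and Atp4a, a proton pump subunit, 0.825 CPM, while Gkn1, Gkn2, Tff1, Tff2, Pgc, Muc5ac, Atp4b and Sox2 had at most about 9 reads each. The 14 pancreatic acinar genes had a median of 0.338 CPM. Of them 6 lay above 1 CPM, led by Cela1 with 13.7 CPM, Ctrb1 with 12.5 CPM and Cpa1 with 8.04 CPM. Of 12 enteroendocrine genes 2 did, Chga with 5.27 CPM and Chgb with 1.34 CPM, and Pyy had 0.397 CPM. The lung and airway list had none above 1 CPM, and Foxj1 led it with 0.286 CPM, ahead of Sftpb with about 6 reads and Sftpc at the lowest value.

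The gut muscle, mesenchyme and enteric neuron list had 6 of 9 genes above 1 CPM, led by Acta2 with 49.9 CPM, Des with 23.9 CPM and Hand2 with 15.8 CPM. These genes are also used by mesenchymal cells outside the gut. Myh11, the smooth muscle myosin, had about 4 reads. Of 9 genes of bile duct and simple epithelium, 7 lay above 1 CPM, led by Cdh1 with 207 CPM, Krt18 with 166 CPM and Krt8 with 128 CPM. The rest of that list was far lower. Krt7 had 7.05 CPM, Krt19 6.08 CPM, Epcam 5.65 CPM, Sox9 2.96 CPM and Cldn7 0.935 CPM, and Spp1 had about 2 reads. Of the liver's own lists, 5 of 7 hepatocyte genes lay above 1 CPM, with Apoa1 at 5096 CPM after Alb and Afp. In the red cell list, Klf1, an erythroid transcription factor, had 692 CPM. Of 3 macrophage genes found under the symbols of that list, 2 lay above 1 CPM, Cd5l with 385 CPM and Vsig4 with 2.23 CPM. Csf1r had 0.684 CPM, and Emr1, the macrophage marker named earlier and not counted here, was listed at the lowest value.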
